A study of Rattus norvegicus and Mus musculus with 18 samples.

Results

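Genes that make, carry, degrade and sense retinoic acid were examined in mouse skin wounds. The set held 9 genes, chosen by symbol among the 49548 genes of the mouse table: the synthesis enzymes Aldh1a1, Aldh1a2 and Aldh1a3, the carrier Crabp2, the degrading enzyme Cyp26b1 and the receptors Rarg, Rara, Rarb and Rxra. All 9 symbols were found, each with 1 Ensembl identifier. They were compared between wound epidermis (3 libraries) and wound dermis (3 libraries) of adult mice, both collected 1 day after the scab had detached, when new hair follicles form in mice. RNA came from whole homogenized tissue and was sequenced by SMART-seq2, which copies polyadenylated RNA into full-length cDNA. No genetic change or drug is named for these animals, and strain and sex are not given in the labels used here. The labels do not say whether the libraries of a group came from separate mice, so p-values here measure spread among libraries, which may be technical. The rat libraries of the series were not used, because nothing used here pairs the rat identifiers with gene names.

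Retinoic acid is the active form of vitamin A. Cells take up retinol, retinol dehydrogenases oxidize it to retinal, and the Aldh1a enzymes oxidize retinal to retinoic acid. Carrier proteins move the acid within the cell and Cyp26 enzymes break it down. In the nucleus a retinoic acid receptor (RAR) paired with a retinoid X receptor (RXR) binds DNA and switches target genes. In skin, retinoids are known to limit keratinocyte differentiation and to influence hair follicles and fibroblasts.

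Values are TPM, a gene's part of all transcripts of its library on a scale that is the same for every library. TPM is scaled for transcript length, so levels of different genes can be set side by side. It keeps no read number, so depth is unknown. Markers of each tissue were summed to check the labels. The 6 fibroblast markers, such as Col1a1 and Dcn, summed to 9.67 to 100.4 TPM in epidermis and 42453 to 67061 TPM in dermis. The 8 suprabasal keratinocyte markers, such as Krt10 and Lor, summed to 45471 to 96634 TPM in epidermis and 427 to 16177 TPM in dermis, with the highest dermis value in replicate 2. Wound dermis replicate 2 thus held far more epidermal transcripts than the other dermis libraries, and the values of the retinoid genes that moved most with it are also given without it. Melanocyte and sebaceous markers summed to at most 4.81 TPM in any library. Whole tissue was measured, so fewer cells of a type and less RNA per cell cannot be told apart in any result that follows.

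The retinoid genes divided between the tissues. Aldh1a3, Crabp2, Rarg and Rxra were higher in wound epidermis, while Cyp26b1, Rara and Aldh1a1 were lower there. Differences were tested by limma on log2(TPM + 1) over the 15982 genes that reached 1 TPM in 3 or more libraries, with Benjamini-Hochberg adjustment over all of them and a threshold of 0.05. Of the 9 genes, 4 passed as higher and 3 as lower, and Aldh1a2 and Rarb lay below the filter and were not tested. Over all tested genes 56.3% passed in either direction, with 17.0% higher and 39.3% lower. Aldh1a1 passed the filter only through its dermis libraries, so its call had to go that way. In all 9 genes the libraries of the groups did not overlap, which was also the case for 66.0% of all tested genes (20.8% higher and 45.3% lower in epidermis). Among the members that were not called, this held for Aldh1a2 and Rarb, both lower in epidermis. The median log2 fold change of all tested genes was -0.42, and it was -0.03 with libraries scaled by the median of ratios and 0.08 with quantile-normalized values, so each fold change is best read against that shift.

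**Figure D1:**
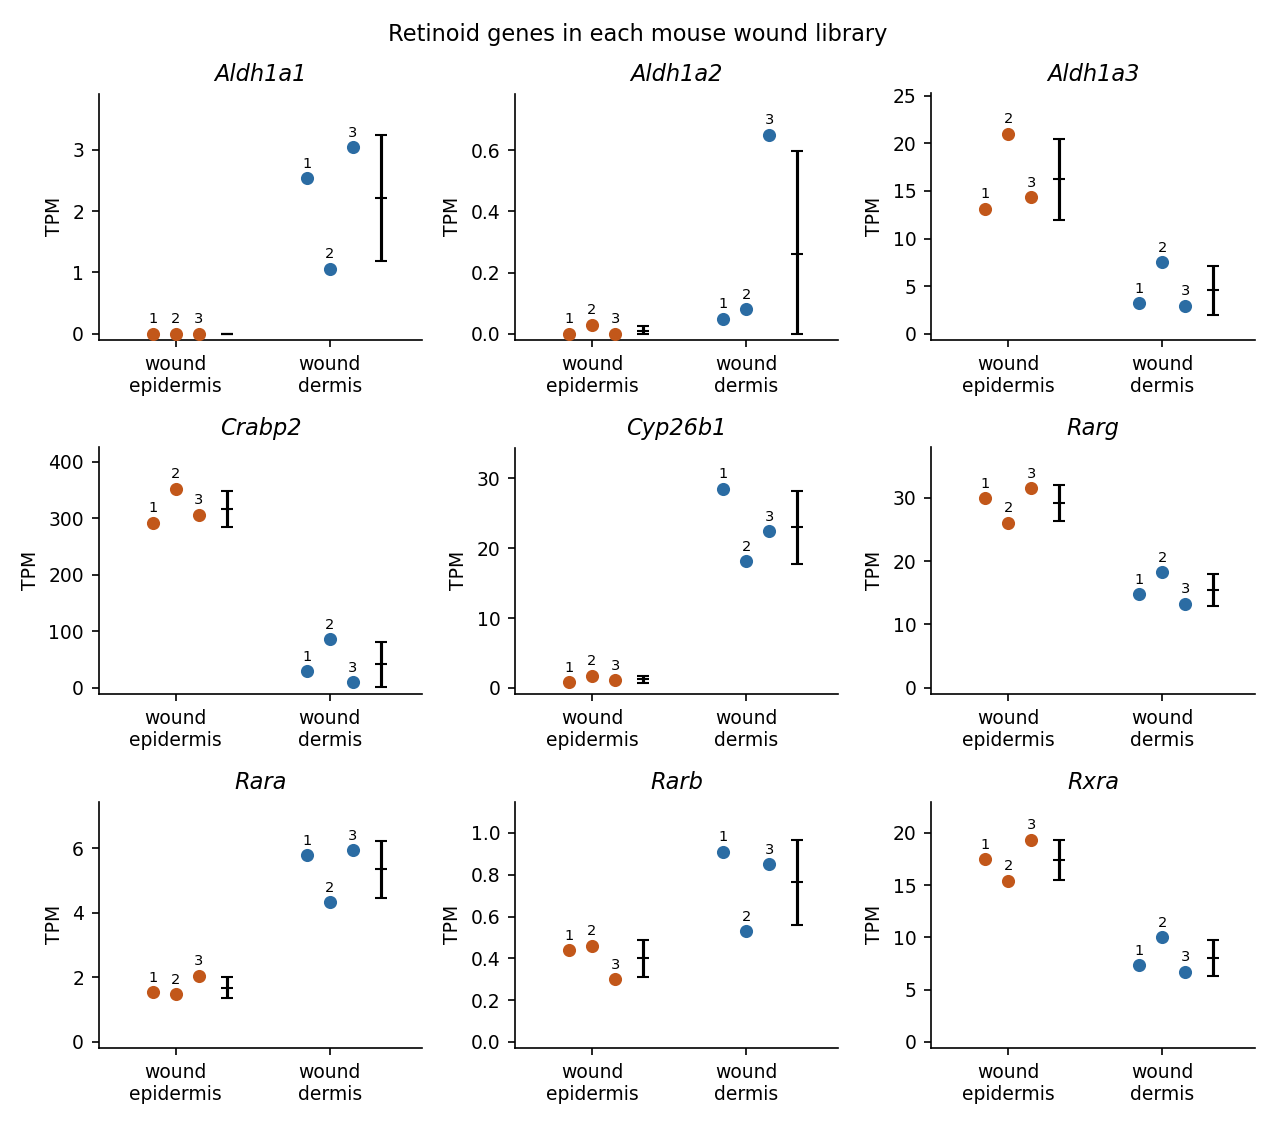
TPM (linear axes from 0) of the 9 retinoid genes in each mouse wound epidermis library (orange, left) and wound dermis library (blue, right), with replicate numbers above the points; the black bars give the mean and SD of 3 libraries, stopped at 0. Epidermis lies above dermis for Aldh1a3, Crabp2, Rarg and Rxra and below it for the other genes, and dermis replicate 2 is the dermis library nearest to epidermis for every gene except Aldh1a2.

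The retinal dehydrogenases that make retinoic acid differed in kind between the tissues: Aldh1a3 was nearly the only one in epidermis, while dermis also held Aldh1a1. Aldh1a3, known for its role in the eye, nose and skin epithelium, stood at 13.1, 21.0 and 14.3 TPM in epidermis replicates 1 to 3, against 3.24, 7.5 and 2.97 TPM in dermis. The lowest epidermis library was above the highest dermis library, replicate 2. Its log2 fold change was 1.69 ± 0.35 (SE, n = 3 each, limma adjusted p = 0.0054), a ratio of means of 3.53, and the log2 value was 2.04 without dermis replicate 2. Aldh1a3 lies on chromosome 7 from 66390890 to 66427517 on the minus strand (mm10, protein-coding).

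Aldh1a1, the best known retinal dehydrogenase of adult tissues, was listed at 0 in all 3 epidermis libraries and stood at 2.53, 1.06 and 3.04 TPM in dermis. Dermis replicate 2 was the lowest of the dermis libraries. The difference passed (limma adjusted p = 0.0021, n = 3 each), and no fold is given against a group listed at 0. With the filter applied again after leaving out any dermis library, Aldh1a1 was no longer tested. Between 0.51% and 3.79% of its transcript windows of read length (86 and 43 bases) also occur in Aldh1a7, a close relative listed at 0 in epidermis and at 0.12 to 0.91 TPM in dermis. Aldh1a2, the main enzyme of the early mouse embryo, was listed at 0, 0.03 and 0 TPM in epidermis and at 0.05, 0.08 and 0.65 TPM in dermis. All 6 libraries lay under 1 TPM, and only dermis replicate 3 was above 0.1 TPM.

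Expressed as shares of the summed Aldh1a transcripts, Aldh1a3 made up 100.0%, 99.9% and 100.0% in epidermis replicates 1 to 3 and 55.7%, 86.8% and 44.6% in dermis. Aldh1a1 supplied 43.5%, 12.3% and 45.6% of the family in the dermis libraries, so replicate 2 stood apart in both shares. The summed level averaged 16.2 ± 4.24 TPM over the epidermis libraries and 7.04 ± 1.45 TPM over the dermis libraries (SD, n = 3 each). An exact permutation test (two-sided) gave p = 0.1 for the share of Aldh1a3, which is the smallest value that 3 libraries against 3 can give. The mean share of Aldh1a3 was higher in epidermis by 37.6 percentage points, and by 49.8 without dermis replicate 2. Aldh8a1, which can oxidize 9-cis-retinal, reached at most 0.16 TPM and was not tested.

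Crabp2, which carries retinoic acid to its receptors in the nucleus, had the highest mean level of the 9 genes in epidermis, and in dermis when replicate 2 was included. It stood at 292, 352 and 307 TPM in epidermis, against 29.5, 86.6 and 10.4 TPM in dermis. Every epidermis library exceeded every dermis library, and the dermis libraries differed among themselves far more than the epidermis libraries did. The log2 fold change was 3.35 ± 0.66 (SE, n = 3 each, limma adjusted p = 0.0045). It was 4.09 without dermis replicate 2 and 2.62 without dermis replicate 3, and it passed in each case. Crabp2 lies on chromosome 3 from 87948666 to 87953376 on the plus strand (mm10, protein-coding).

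Its relative Crabp1, a carrier known from the dermal papilla and from embryonic mesenchyme, went the other way. Crabp1 stood at 0.63, 0.54 and 3.14 TPM in epidermis, against 281, 211 and 256 TPM in dermis. It fell by 6.83 on the log2 scale (SE 0.40, n = 3 each, limma adjusted p = 2.1e-05). Crabp2 made up 99.8%, 99.8% and 99.0% of the summed Crabp transcripts in epidermis and 9.50%, 29.1% and 3.89% in dermis, a difference in means of 85.4 percentage points, or 92.8 without dermis replicate 2. The sums themselves overlapped, averaging 319 ± 31 TPM over epidermis and 291 ± 22.8 TPM over dermis libraries (SD, n = 3 each; exact permutation p = 0.5, two-sided). Fabp5, a fatty acid binding protein that can also carry retinoic acid, was higher in epidermis by 3.58 ± 0.75 (SE, limma adjusted p = 0.0057), and by 4.40 without dermis replicate 2 and 2.75 without dermis replicate 3. Its epidermis libraries held 2994, 4399 and 3549 TPM, against 305, 939.9 and 94.6 TPM in dermis.

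The opposite direction of the Crabp genes rests on telling their transcripts apart, so the most alike stretch of their coding sequences is shown, with capitals at the bases that differ. Both stretches lie in exon 2 and are read from GENCODE on mm10, at chr3:87952195-87952254 (plus strand) for Crabp2 and chr9:54765563-54765622 (plus strand) for Crabp1.
Crabp2: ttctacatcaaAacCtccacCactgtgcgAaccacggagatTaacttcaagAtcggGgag
Crabp1: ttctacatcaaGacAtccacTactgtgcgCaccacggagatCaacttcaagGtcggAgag
In these 60 bases 53 are identical. The longest identical run over the coding sequences was 11 bases, shorter than the shorter read length of 43 bases. No 43-base window of the transcripts of Crabp2 or Crabp1 occurred in another annotated gene on either strand.

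**Figure D2:**
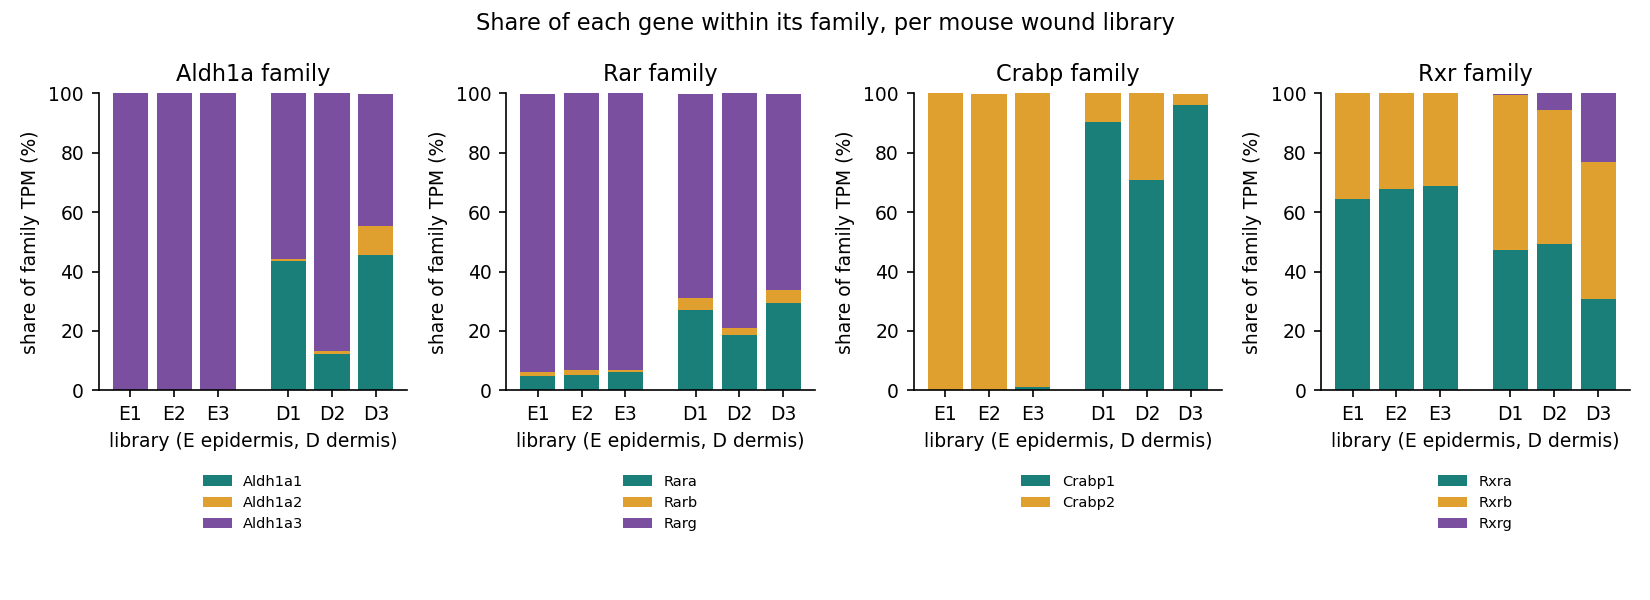
Share (%) of each gene in the summed TPM of its family, for the Aldh1a, Rar, Crabp and Rxr families, in epidermis libraries E1 to E3 (left) and dermis libraries D1 to D3 (right). Crabp2 fills at least 99.0% of its bar in epidermis and at most 29.1% in dermis, and Rarg is the largest part of its family in every library.

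Cyp26b1, which breaks down retinoic acid and is known to protect tissues from it in the embryo, was far lower in epidermis than in dermis. It stood at 0.83, 1.76 and 1.10 TPM in epidermis, against 28.5, 18.1 and 22.4 TPM in dermis. The groups were far apart, and dermis replicate 2 was again the lowest of its group. Cyp26b1 fell by 3.43 on the log2 scale (SE 0.26, n = 3 each, limma adjusted p = 5.8e-05), and the mean in dermis was 18.7 times that in epidermis. Its fold change lay between -3.59 and -3.27 when each library was left out in turn. Epidermis held Cyp26b1 at 3.61%, 7.65% and 4.78% of its dermis mean, while the fibroblast markers stood at medians of 0.07%, 0.02% and 0.19% there. Macrophage markers stood at medians of 1.32%, 0.44% and 1.56%, with the single marker Cd68 at 23.7%, 36.6% and 28.2%. How much of the epidermis level of Cyp26b1 came from dermal cells was not tested. Cyp26a1 and Cyp26c1, the other enzymes of this family, reached at most 0.16 and 0.07 TPM in any library and were not tested. Cyp26b1 lies on chromosome 6 from 84571414 to 84593908 on the minus strand (mm10, protein-coding).

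Among the receptors, Rarg was the main RAR in both tissues. Rarg, known as the predominant RAR of skin, stood at 29.95, 26.0 and 31.5 TPM in epidermis, against 14.8, 18.2 and 13.3 TPM in dermis. The groups did not overlap, and the log2 fold change was 0.88 ± 0.20 (SE, n = 3 each, limma adjusted p = 0.0082), or 1.33 after median-of-ratios scaling and 1.00 without dermis replicate 2. Rara, a receptor found in most tissues, went the other way, with 1.53, 1.47 and 2.05 TPM in epidermis, against 5.78, 4.32 and 5.93 TPM in dermis. Rara fell by 1.24 on the log2 scale (SE 0.21, n = 3 each, limma adjusted p = 0.0022). After quantile normalization the fold change of Rara was -0.48 and did not pass (limma adjusted p = 0.091), and without dermis replicate 2 it was -1.36 and passed.

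Rarb, itself a well known target of retinoic acid, was scarce. It stood at 0.44, 0.46 and 0.30 TPM in epidermis, against 0.91, 0.53 and 0.85 TPM in dermis. No library reached 1 TPM, so Rarb was not tested across genes, and an exact permutation test (two-sided, n = 3 each) gave p = 0.1, the smallest value possible here. Rarb is also the least certain of the receptors, because 34.7% of its 43-base transcript windows occur in another gene on either strand, most of them in Top2b, a neighbour on the opposite strand. Top2b, a DNA topoisomerase, ranged over 25.8 to 31.7 TPM in epidermis, against 22.9 to 39.8 TPM in dermis, a log2 fold change of -0.11 that did not pass (limma adjusted p = 0.73) and changed sign under other scalings. SMART-seq2 does not keep the strand of a read. Whether reads of Top2b entered the Rarb values was not tested.

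Rarg accounted for 93.8%, 93.1% and 93.1% of the summed RAR transcripts in epidermis and 68.8%, 79% and 66.2% in dermis. Rara accounted for 4.79%, 5.26% and 6.06% in epidermis and 26.9%, 18.7% and 29.5% in dermis. The shares of the groups did not overlap for either gene (exact permutation p = 0.1, two-sided, the smallest possible). The summed RAR level averaged 31.2 ± 2.99 TPM over the epidermis libraries and 21.5 ± 1.5 TPM over the dermis libraries (SD, n = 3 each).

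The RAR genes are closely related, and the coding bases of the part of the zinc finger that reads DNA are shown because Rarg and Rara differ in direction. Capitals mark the bases that are not the same in all 3 genes. The stretch crosses an intron in each gene, and the coordinates (mm10, GENCODE) run from its lowest to its highest base: chr15:102241155-102241850 on the minus strand, exons 4 and 5, for Rarg, chr11:98966481-98968089 on the plus strand, exons 3 and 4, for Rara, and chr14:16509031-16548428 on the minus strand, exons 2 and 3, for Rarb.
Rarg: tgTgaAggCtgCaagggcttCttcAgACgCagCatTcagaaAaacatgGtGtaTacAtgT
Rara: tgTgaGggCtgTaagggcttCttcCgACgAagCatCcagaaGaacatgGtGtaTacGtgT
Rarb: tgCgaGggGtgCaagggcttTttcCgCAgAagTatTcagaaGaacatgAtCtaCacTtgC
Of these 60 bases 43 were the same in all 3 genes. The longest identical run between the coding sequences of Rarg and Rara was 24 bases, and between Rarg and Rarb 23 bases. No 43-base window of Rarg occurred in another gene, and 0.276% of those of Rara did.

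Rarb is the textbook case of a gene whose promoter holds a retinoic acid response element, a direct repeat of a hexamer with a spacer of 5 bases. The sequence tables used here hold rat promoters only (RefSeq, GRCr8, 250 bases before to 50 after each annotated start). The hexamer AGGTCA, the usual receptor site, was searched in direct repeat on both strands together with a variant spelled AGTTCA, a further variant spelled GGGTCA and one more that was spelled GGTTCA, in any combination. With a spacer of 5 bases, the repeat occurred in 1 of the 10 windows of the 9 genes and in 0.382% of all 33469 rat windows. With spacers of 1 and 2 bases it occurred in none of the 10 and in 0.233% and 0.170% of all windows. The match was in rat Rarb, at chr15:11336411-11336437 on the plus strand, with the repeat beginning 25 bases after the annotated start, and capitals mark the hexamers.
Rat Rarb: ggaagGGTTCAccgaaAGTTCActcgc
Both hexamers of the match are variants that were spelled out for the search, and Rarb was known beforehand to hold such a repeat. The count in the windows of the 9 genes is therefore no result about the set. The match is a description of the rat sequence, and a search that finds no match says only that these letters are not in the window.

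Rxra, the partner that RARs need to bind DNA, stood at 17.5, 15.4 and 19.3 TPM in epidermis, against 7.32, 10.0 and 6.73 TPM in dermis. The groups did not overlap, and the log2 fold change was 1.04 ± 0.22 (SE, n = 3 each, limma adjusted p = 0.0058), or 1.56 after quantile normalization and 1.19 without dermis replicate 2. Rxrb, found in most tissues, averaged 8.62 ± 1.17 TPM over epidermis and 9.10 ± 1.02 TPM over dermis libraries (SD, n = 3 each). Its log2 fold change of -0.07 did not pass (95% interval -0.55 to 0.40, limma adjusted p = 0.77), and its sign turned, to 0.35 with median-of-ratios scaling, 0.51 with quantile normalization and 0.02 without epidermis replicate 2. Rxrg, known from muscle and brain, was listed at 0 in every epidermis library and at 0.07, 1.17 and 5.08 TPM in dermis, with dermis replicate 3 far above the others. Rxra made up 64.3%, 67.7% and 68.7% of the summed RXR transcripts in epidermis and 47.4%, 49.2% and 30.7% in dermis.

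The genes lie apart on the genome. Rarg lies on chromosome 15 from 102234938 to 102257517 and Rarb on chromosome 14 from 16430839 to 16819156, both on the minus strand. Rara lies on chromosome 11 from 98927818 to 98974942, Rxra on chromosome 2 from 27676440 to 27762957, Aldh1a1 on chromosome 19 from 20492715 to 20643465 and Aldh1a2 on chromosome 9 from 71215789 to 71296243, all on the plus strand. All are protein-coding genes (mm10, GENCODE).

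The order of levels differed between the tissues. In epidermis Crabp2 (317 ± 31.5 TPM) was followed by Rarg (29.2 ± 2.81), Rxra (17.4 ± 1.95), Aldh1a3 (16.2 ± 4.22), Rara (1.68 ± 0.32), Cyp26b1 (1.23 ± 0.48), Rarb (0.40 ± 0.09) and Aldh1a2 (0.01 ± 0.02), with Aldh1a1 listed at 0 (mean and SD, n = 3). Rxra and Aldh1a3 overlapped there, as did Rara and Cyp26b1, and Aldh1a2 and Aldh1a1. In dermis Crabp2 (42.1 ± 39.7 TPM) was followed by Cyp26b1 (23.0 ± 5.24), Rarg (15.4 ± 2.53), Rxra (8.02 ± 1.74), Rara (5.34 ± 0.89), Aldh1a3 (4.57 ± 2.54), Aldh1a1 (2.21 ± 1.03), Rarb (0.76 ± 0.20) and Aldh1a2 (0.26 ± 0.34). Neighbours in this order overlapped except Rarg above Rxra, Rxra above Rara and Aldh1a1 above Rarb. Cyp26b1 thus overlapped with Crabp2 in dermis and lay far below it in epidermis. Without dermis replicate 2 the first places changed, since Cyp26b1 averaged 25.5 TPM there, Crabp2 19.9 TPM and Rarg 14.0 TPM.

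In dermis, Crabp2, Aldh1a3, Rarg and Rxra were highest in replicate 2, as were the keratinocyte markers. Crabp2 stood in dermis replicates 1 to 3 at 9.30%, 27.3% and 3.27% of its epidermis mean. The 8 suprabasal markers had medians of 1.12%, 22.7% and 0.516% in the same libraries, and the 5 basal markers, such as Krt5 and Trp63, 15%, 39.6% and 3.03%. Replicate 2 was highest and replicate 3 lowest in Crabp2 and in both marker medians, although the single markers Lor, Flg and Krt15 were lowest in replicate 1. Aldh1a3 stood at 20.1%, 46.4% and 18.4%, Rarg at 50.6%, 62.5% and 45.6%, and Rxra at 42.0%, 57.4% and 38.6%, with replicate 2 highest in each. In replicate 3 these 3 genes were far above either marker median. How much of the dermis level of these genes came from epidermal cells was not tested.

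Dermal markers were also compared in the other direction. As percentages of the dermis mean, epidermis replicates 1 to 3 had medians of 0.6%, 0.157% and 0.638% for 5 endothelial markers, 1.32%, 0.44% and 1.56% for 6 macrophage markers and 1.6%, 0.062% and 0.762% for 5 smooth muscle and pericyte markers. Cldn5 of endothelium and Myh11 of smooth muscle were listed at 0 in epidermis replicates 1 and 2. Single markers stood well above their list's median, with Cd68 of macrophages at 23.7%, 36.6% and 28.2% and Csf1r at 13.1%, 11.2% and 18.5%, Pecam1 of endothelium at up to 9.13% and Cnn1 of smooth muscle at up to 14.4%. Rara stood at 28.6%, 27.5% and 38.4% of its dermis mean, above the medians and near the level of Cd68. Crabp1 stood at 0.253%, 0.217% and 1.26%, which was below these medians in replicate 1 and between them in replicates 2 and 3. In each replicate Crabp1 was above the fibroblast median, which was 0.0666%, 0.0167% and 0.188%. The part of dermal cells in the epidermis values was not tested further.

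**Figure D3:**
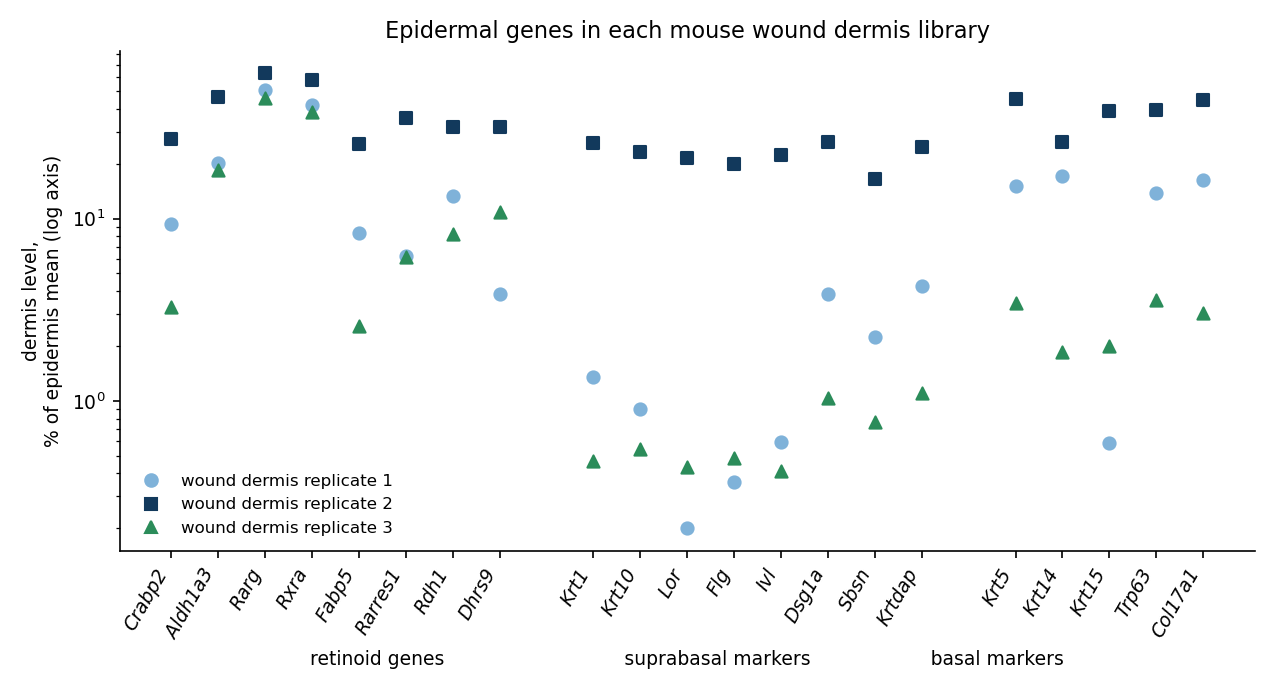
Level of each gene in the 3 wound dermis libraries as a percentage of its mean in wound epidermis (log axis). Shown are some of the retinoid genes that were higher in epidermis, and suprabasal and basal keratinocyte markers. Awat2, also higher in epidermis, is not shown and was highest in dermis replicate 3. Dermis replicate 2 (squares) is highest for every gene shown, and Rarg and Rxra stay at 38.6% or more in all 3 libraries.

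The wider retinoid pathway was listed by role, with 63 genes in all, which include the 9 members. Of the 63 genes 51 were tested, and 15 were higher and 16 lower in epidermis. The median log2 fold change of the 51 was -0.14, beside -0.42 over all tested genes, of which 17.0% were higher and 39.3% lower. Without the members 44 genes were tested, 11 were higher and 13 lower, with a median of -0.22. For the wider lists the split was 18 higher and 11 lower with median-of-ratios scaling and 19 and 12 with quantile normalization. Over all tested genes it was 4342 and 4850, and 4694 and 4191, under these scalings, against 2721 and 6275 in the main fit. Without dermis replicate 1 or 3, with the filter applied again, the lower genes of the lists numbered 10 and 9. Over all tested genes they numbered 3416 and 3256. Of 12 genes of uptake and storage, 10 were tested, 3 were higher and 4 lower (median -0.36). Rbp4, which carries retinol in blood, was listed at 0, 0 and 1.01 TPM in epidermis and at 96.5, 60.6 and 324 TPM in dermis libraries, a fitted difference of -6.63 on the log2 scale (limma adjusted p = 0.00015), or -5.94 without dermis replicate 3. Stra6, the membrane receptor that takes retinol from Rbp4, was found at 0.02, 0.08 and 0.16 TPM in epidermis, against 7.54, 4.96 and 9.48 TPM in dermis (-2.90, adjusted p = 9.9e-05). The groups were separate for both genes. Stra6 reached 1 TPM in dermis libraries only, so its call had to go that way. Scarb1, a scavenger receptor that takes up carotenoids and lipids, and Lpl, a lipase that frees fatty acids and retinol from lipoproteins, differed by -3.93 and -3.97 (adjusted p = 3.3e-05 and 1.7e-05). The higher genes of this list were Rbp2 and Rbp7, carriers of retinol within cells, and Awat2, an acyltransferase. Awat2 passed the filter through its epidermis libraries only, which fixed its direction. With the filter applied again, Awat2 did not pass when any 1 dermis library was left out (adjusted p = 0.06 to 0.095). With the tested genes held fixed, it did not pass when any 1 epidermis library was left out (adjusted p = 0.05 to 0.063). Rbp2 was found at 484.5, 393 and 542 TPM in epidermis, against 29.0, 120.0 and 3.93 TPM in dermis (4.17, adjusted p = 0.011), and its difference was 5.27 without dermis replicate 2 and 2.96 without dermis replicate 3.

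Of 19 genes that convert retinol and retinal, 17 were tested, 6 were higher and 5 lower in epidermis (median 0.04), beside 17.0% and 39.3% of all tested genes. The lower count was 2 without epidermis replicate 2 or dermis replicate 3. Without dermis replicate 1 it was 3 with the filter applied again and 4 with the tested genes held fixed. It was 2 under median-of-ratios scaling and 3 under quantile normalization, where 4850 and 4191 of all tested genes were lower, against 6275. Rdh1, a mouse retinol dehydrogenase, was found at 20.1, 24.3 and 18.2 TPM in epidermis, against 2.77, 6.59 and 1.72 TPM in dermis (2.35 on the log2 scale, limma adjusted p = 0.002). Dhrs9, which also oxidizes retinol, was found at 8.32, 6.22 and 6.35 TPM in epidermis, against 0.27, 2.21 and 0.75 TPM in dermis (2.04, adjusted p = 0.0025). Dermis replicate 2 was the highest dermis library for both, and without it the differences were 2.76 for Rdh1 and 2.41 for Dhrs9. The alcohol dehydrogenases Adh7, which oxidizes retinol, and Adh5, better known for formaldehyde, differed by -1.81 and -1.05 (adjusted p = 0.00088 and 0.0029). The other higher genes of this list were Rdh12, Rdh13, Rdh16 and Dhrs7, and the other lower ones were Adh1, Akr1b8 and Rdh10. Rdh5, Rdh11, Rdh14, Dhrs3, Dhrs4 and Bco2 passed in neither direction. Rdh10, the retinol dehydrogenase needed in the mouse embryo, differed by -0.82 (adjusted p = 0.022). Rdh10 did not pass with median-of-ratios scaling (-0.40), with quantile normalization (-0.28), or without epidermis replicate 2 or 3 or dermis replicate 3 (adjusted p = 0.059, 0.062 and 0.086).

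**Figure D4:**
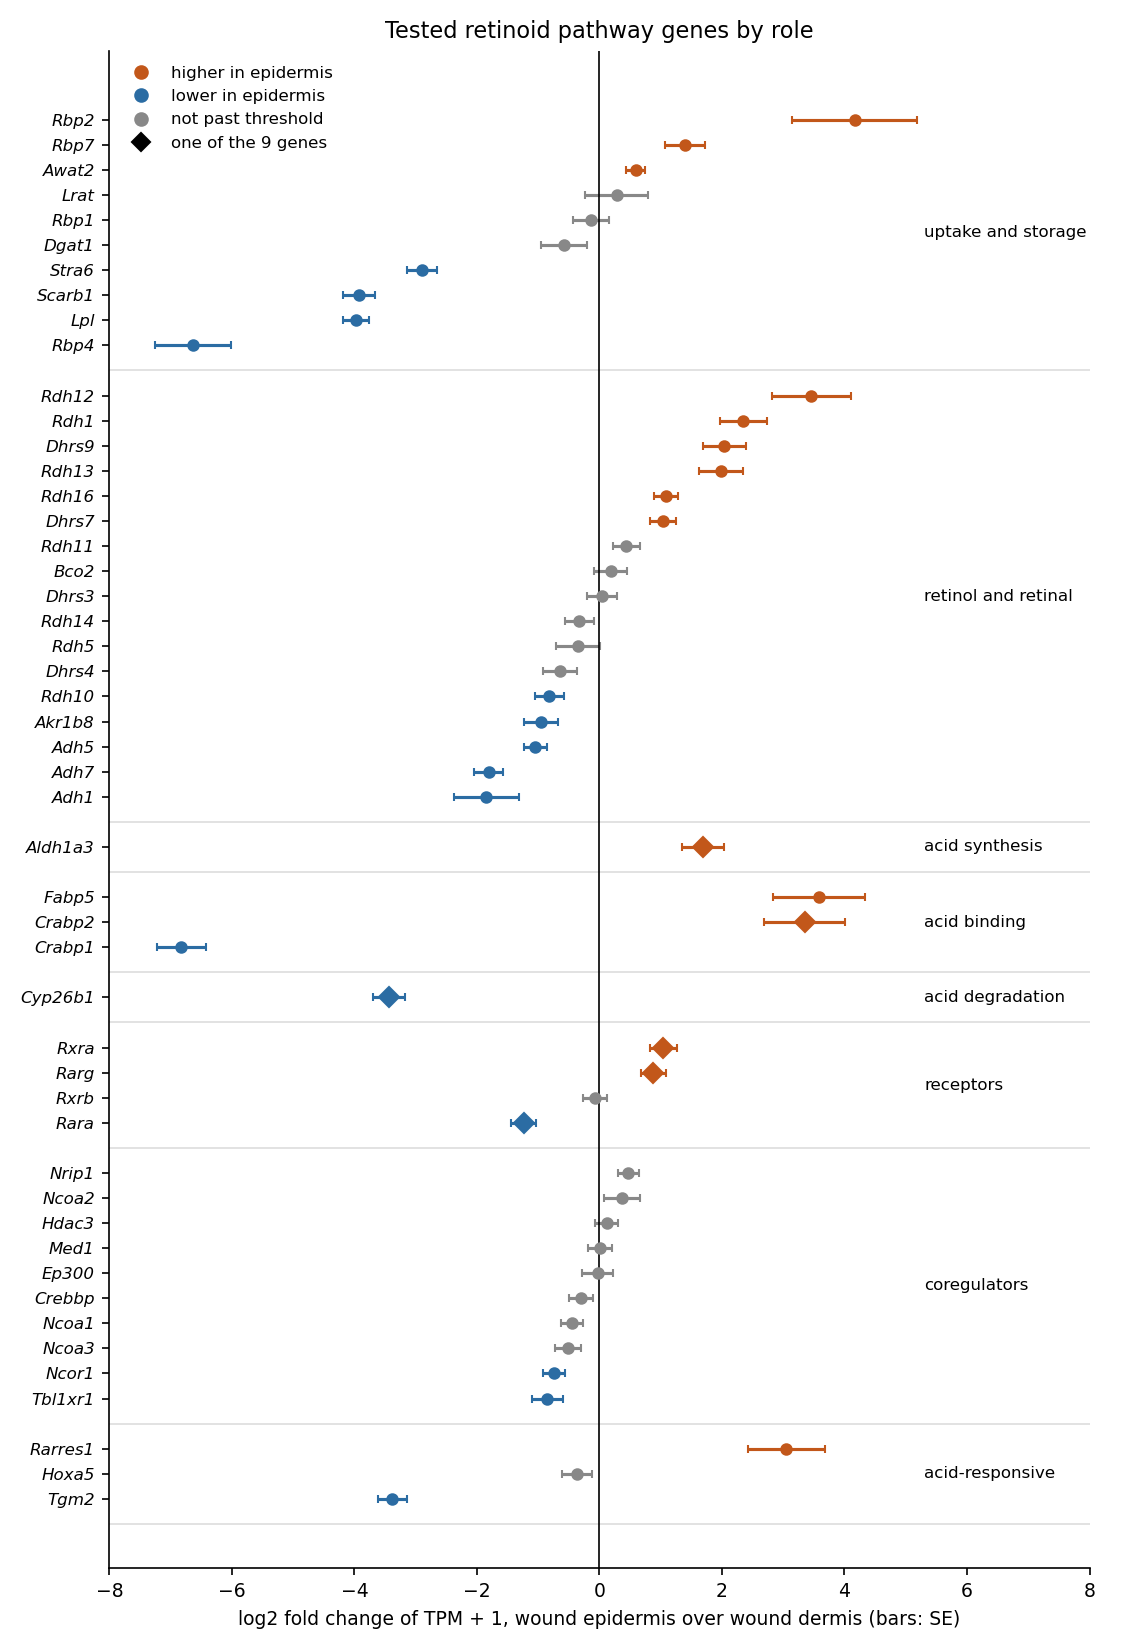
Log2 fold change of TPM + 1, wound epidermis over wound dermis, with SE, for tested genes of the wider retinoid lists that are reported here, grouped by role and coloured by the call (orange higher, blue lower, grey not past the threshold); diamonds are members of the set of 9. Each gene is drawn once, and Aldh1a1 is left out because it was listed at 0 in epidermis; fold changes run from -6.83 for Crabp1 to 4.17 for Rbp2.

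Of 14 genes known to respond to retinoic acid, 10 were tested, 2 were higher, 3 lower and 5 passed in neither direction (median -0.05), which is near the 17.0% higher and 39.3% lower of all tested genes. Besides Crabp2 the higher gene was Rarres1, a retinoid-induced gene of human skin, with 154, 119 and 121 TPM in epidermis, against 8.13, 46.9 and 8.09 TPM in dermis (3.05 on the log2 scale, limma adjusted p = 0.0053). This difference was 3.85 without dermis replicate 2. Besides Cyp26b1 the lower genes were Stra6 and Tgm2, both of which passed the filter through their dermis libraries only, so that their direction was fixed by it. Tgm2, the tissue transglutaminase, was found at 0.04, 0.44 and 0.24 TPM in epidermis, against 12.7, 9.53 and 13.6 TPM in dermis (-3.38, adjusted p = 3.4e-05). With 1 dermis library left out and the filter applied again, the lower count was 1. Dhrs3, which turns retinal back into retinol, was abundant in both tissues with 1176 ± 239.9 TPM over epidermis and 1129 ± 115 TPM over dermis libraries (SD, n = 3 each), and its log2 fold change of 0.04 did not pass (95% interval -0.52 to 0.61) and turned to -0.45 with quantile normalization, -0.10 without epidermis replicate 1 and -0.02 without dermis replicate 1. These genes were chosen from general knowledge, but with earlier results of these data known, and several belong to other lists as well.

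Of 11 coregulators that work with nuclear receptors, all were tested, 0 were higher and 2 lower in limma (median -0.30). Over all tested genes 17.0% were higher and 39.3% lower, with a median of -0.42. At an unadjusted p under 0.05 the counts of the coregulators were 1 higher and 5 lower. After median-of-ratios scaling 2 of them passed as higher and 0 as lower, beside 4342 and 4850 of all tested genes. Ncor1, a corepressor of RARs without ligand, was found at 75.1, 79.6 and 89.0 TPM in epidermis, against 149.6, 136 and 126 TPM in dermis (-0.75 on the log2 scale, adjusted p = 0.011). Ncor1 did not pass after median-of-ratios scaling (-0.28, adjusted p = 0.21) or without epidermis replicate 1 (adjusted p = 0.054). Tbl1xr1, a subunit of the same corepressor complex, stood at -0.85 (adjusted p = 0.021) and did not pass with median-of-ratios scaling (-0.43), with quantile normalization (-0.26), or without epidermis replicate 1 or 2 or dermis replicate 1 or 3 (adjusted p = 0.056 to 0.076). Nrip1, a corepressor that binds receptors with ligand, did not pass at 0.47 (adjusted p = 0.051), and it passed under 6 alternatives, with 0.92 after median-of-ratios scaling (adjusted p = 0.0028).

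For each of the 9 genes the nearest profile was sought among 8336 abundant genes, as the root mean square difference of log2(TPM + 1) over the 6 libraries, each gene centred on its own mean. The nearest to Crabp2 was Dsc1, a desmosomal cadherin of the upper epidermis, at 0.092. Dsc1 was found at 34.2, 44.7 and 41.8 TPM in epidermis, against 3.31, 9.96 and 0.37 TPM in dermis. The nearest to Cyp26b1 was Tmem98 (0.128), to Aldh1a3 Dedd2 (0.126), to Aldh1a1 Arhgap30 (0.12), to Rarg Acaa1a (0.026), to Rxra Ubqln1 (0.04), to Rara Ube2d1 (0.054), to Rarb Rnf20 (0.052) and to Aldh1a2 Lrrc57 (0.103). For Rarg 564 genes lay within 0.25 of its profile and for Crabp2 23 did, so with 6 libraries the nearest gene was 1 of many for most of the set. Rarb and Aldh1a2 lay under 1 TPM in every library and varied little on this scale. For them 699 and 482 genes lay within 0.25, so their nearest genes say little.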

How the data were processed

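The authors deposited TPM values per gene and library, and each mouse library summed to 1000000 or 1000001. Bowtie 1.0.0, RSEM 1.2.31 and the builds mm10 and Rnor_6.0 are named per the submitters' processing notes, while annotation and settings were not given in the sources used here. Per the labels' protocols, libraries started from either 10 ng of RNA (12 pre-amplification cycles) or 100 ng (10 cycles) and were read from 1 end over 86 or 43 bases. The labels do not tie these settings to libraries, so no batch could be formed from them. TPM keeps no depth, so no counting interval is given. All 6 mouse columns matched a labelled sample.

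Ensembl identifiers were paired with symbols for 49289 of 49548 rows. Genes that reached 1 TPM in 3 or more libraries were tested on the scale log2(TPM + 1), using R 4.3.3 and limma 3.58.1 with the mean-variance trend. On this scale, changes of genes with values around 1 TPM come out too small. The fit had 2 groups and no covariate, and it was tested on simulated data with known changes before use. The simulation changed few genes, all of them well above the filter. It therefore does not cover calls of genes at low levels, or a contrast in which most genes are called. Shares within families were compared by exact permutation over libraries. The genes named are the 9 members, their family relatives and up to 4 further tested genes of each wider list with the smallest adjusted p. Rdh10, Dhrs3, Rbp2, Rbp7, Awat2, Top2b, Aldh1a7, Cldn5, Myh11, Cd68, Csf1r, Pecam1, Cnn1 and the further genes of the plots were added after their values were seen. The members and lists were chosen with earlier results of these data known. Transcript windows and coding sequences came from GENCODE vM21 (mm10) and promoter windows from RefSeq (rat GRCr8). Windows were compared with all annotated transcripts on both strands. Alternatives changed the pseudocount, the filter, the scaling, the trend, the replicate block and the libraries. The values of 1 coregulator are not reported here, and the counts of its list include it.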

Additional observations from a re-analysis of the deposited data

How the results depend on the processing

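Over the 21 alternatives the number of the 9 genes that were higher stayed at 4. The number that were lower was 3, and it was 1 with a filter of 5 TPM, which left Rara and Aldh1a1 untested, and 2 to 3 when 1 library was left out. Of 142 fits of single members, 141 kept direction and side of the threshold, and Rara after quantile normalization did not. Over all genes 2721 were higher, against 4342 with libraries scaled by the median of ratios and 4694 with quantile-normalized values, where 47.2% and 52.8% of the called genes were higher, against 30.2%. Leaving out 1 library gave 1943 to 2791 higher and 3256 to 6406 lower genes, against 6275 lower. In the wider lists the lower genes numbered 9 to 16 and the higher genes 14 to 15 with 1 library left out. Of the genes recomputed under the alternatives, Rxrb (-0.07), Dhrs3 (0.04) and Top2b (-0.11) turned sign, and none of them passed the threshold. Rxrb was 0.35 and 0.51 under these scalings and ran from -0.15 to 0.02 with 1 library left out. Dhrs3 was -0.45 with quantile-normalized values, its lowest over the alternatives, and its highest was 0.52. With 1 library left out Dhrs3 ran from -0.10 (without epidermis replicate 1) and -0.02 (without dermis replicate 1) to 0.19 (without epidermis replicate 2). Top2b was 0.35 and 0.20 under these scalings and ran from -0.32 (without dermis replicate 3) to 0.06 (without dermis replicate 1). The share of Rxrg within its family differed by -9.80 percentage points and by -3.10 without dermis replicate 3, and that of Aldh1a2 by -3.80 and -0.845. The causes were not tested. The labels give both groups the numbers 1 to 3 but state no pairing, so the libraries were not treated as pairs. The deviations of same-numbered libraries correlated across genes at -0.135, 0.086 and 0.189, and 1 of 3 epidermis libraries correlated best with its own number. With 3 libraries per group these values cannot tell whether libraries shared an animal. With the replicate block 2464 genes were higher and 5940 lower, and the counts of the 9 genes were the same, at 4 and 3, beside 15 higher and 15 lower in the wider lists. Rdh10 (adjusted p = 0.053) did not pass with the block. The depth of the libraries is unknown, so values near 0 cannot be told from absence.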
